A study of Mus musculus with 47 samples.

Results

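The 39 genes described here are the nuclear-encoded subunits of mitochondrial respiratory complexes II, III and IV and of the ATP synthase, complex V. They were chosen by name as the listed subunits of each complex, with no measured value in the rule, and all 39 were found among the 56748 genes of the count table. Complex II contributed 4 genes, complex III 9, complex IV 11 and complex V 15. All of them passed the filter on low counts in every comparison, and the lowest count of any of them in any sample was 456.

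The respiratory chain sits in the inner mitochondrial membrane. Complex I oxidises NADH and complex II, succinate dehydrogenase, oxidises succinate; both pass electrons to ubiquinone. Complex III moves them from ubiquinol to cytochrome c, complex IV passes them to oxygen, and complex V uses the resulting proton gradient to make ATP. Complex II is built from nuclear genes alone, whereas complexes III, IV and V each combine nuclear subunits with a few encoded by mitochondrial DNA (mtDNA), so that both genomes must supply parts of the same enzyme.

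The samples came from B78-D14, a pigment-poor mouse melanoma line derived from B16 that lacks Cdkn2a. Every sample, controls included, shares that background, and none was given a treatment. Mutant lines had been made with a mitochondrial base editor that truncates mt-Nd5, a core subunit of complex I, at mtDNA position 11944 or 12436. The percentage in a group's name, mt.11944 60% for example, is its nominal heteroplasmy, the share of mtDNA copies carrying the edit. RNA was measured in 4 m.11944 60% and 4 control (WT) cultures. It was also measured in fragments of subcutaneous tumors from adult male C57BL/6 mice with an intact immune system: 4 control (WT) tumors, 7 m.12436 60% tumors and 7 m.12436 40% tumors. Each genotype is a single edited population, so a difference between genotypes cannot be told apart from a difference between cell populations. The 26 libraries held between 16475735 and 36173502 counted reads, and the 39 genes together took between 0.511% and 0.925% of them.

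As a check of the labelled tissue, the 6 T and NK cell markers had no count in any culture, and the 5 leukocyte markers together stayed between 0.102 and 0.499 CPM there (CPM, reads scaled to a library of 1000000). The 8 melanocytic markers summed to only 7.90 to 23.4 CPM in the cultures and 15.2 to 66.7 CPM in the tumors, a low level in both. Tumors were mixtures: the leukocyte markers summed to 386.1 to 809.7 CPM and the 5 fibroblast markers to 5692 to 13840 CPM, against 558.1 to 2297 CPM for the latter in culture. The 8 skeletal muscle markers passed 10 CPM in 12 of the 18 tumors, from 45.0 to 335.3 CPM in the m.12436 40% tumors and from 2.82 to 360.8 CPM in the other tumors. In such bulk samples, fewer cells of a type and less RNA per cell cannot be told apart.

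Some of the subunit messages cannot be assigned surely. Of the 39 reference mRNAs 18 are shorter than 1000 bases, and in 9 over 50% of the mRNA lay in stretches also found elsewhere in the mouse genome. The share was highest in Atp5mc2 (89.2%), Uqcrb (87.5%) and Atp5mc1 (85.8%) and was 41.8% in Cox8a. It was 0 in Sdha, Sdhd, Uqcrc2, Uqcrfs1, Cox4i1 and Atp5f1a. How the counting treated reads with several matches, or strand, is not given in the sources used here. The mRNA of Atp5pf overlaps neighbouring genes over 46.4% of its length, that of Atp5pd over 40.0%, that of Cox5a over 37.9% and that of Uqcr11 over 35.3%, in each case with genes of the opposite strand, so that without strand in the counting the reads could not be told apart.

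The first comparison asked whether the subunits of the remaining complexes differed when complex I was hit by the m.11944 edit in culture. None of the 39 passed an adjusted p of 0.1 in edgeR's quasi-likelihood test, none did in limma-voom or DESeq2, and none had an unadjusted p under 0.05 in edgeR without pairing of the cultures. The call rate over all 12930 genes tested was 0.0387%, or 5 genes. The members' median log2 difference was -0.03, against -0.004 over all genes, with 15 genes above 0 and 24 below. By complex the medians were 0.01 for II, -0.003 for III, -0.04 for IV and -0.03 for V. The median of the 39 ran from -0.08 without mutant culture 4 to 0.06 without control culture 4, and it was also above 0 without mutant culture 1 or 2 or control culture 3.

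Atp5po, the stalk subunit that confers oligomycin sensitivity, had the smallest p of complex V and the lowest difference. Its CPM, scaled over the cultures alone, were 129.2, 123.2, 135.3 and 148.6 in control cultures 1 to 4 and 107.3, 111.1, 125.0 and 127.6 in the mutant cultures. The mutant value was the lower in each numbered pair, but the groups overlapped, and the log2 difference of -0.19 (SE 0.10) had an adjusted p of 1 by edgeR. Ndufa4, a complex IV subunit once assigned to complex I, had the highest difference. It measured 79.8, 77.9, 142.5 and 146.6 CPM in the control cultures and 94.5, 103.6, 146.3 and 151.0 CPM in the mutant ones. Its log2 difference was 0.15 (SE 0.27, adjusted p of 1 by edgeR), and the gap between cultures 1 and 2 and cultures 3 and 4 was wider than that between genotypes. The subunits with the smallest p in the other complexes were Sdhc, a membrane anchor of complex II (0.05), Uqcrfs1, the Rieske iron-sulfur protein of complex III (-0.11), and Cox5a of complex IV (-0.11).

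Levels also split by culture number. In 22 of the 39 genes cultures 3 and 4 lay above cultures 1 and 2 in both lines, against 31.1% of all 12930 genes, among them Sdha, Sdhb, Sdhc and Sdhd, all 4 genes of complex II. In 8 they lay below in both lines, against 31.1% of all genes: Uqcrc2, Uqcrfs1 and Uqcrq of complex III, Cox4i1, Cox7c and Cox8a of complex IV, and Atp5mc2 and Atp5f1e of complex V. The labels do not say what the numbers stand for. Cultures with the same number deviated together across genes, so the comparison was also made within numbers. The replicate block raised the count over all genes from 5 to 919 and still called none of the 39, of which 4 had an unadjusted p under 0.05 (Atp5pf, Atp5po, Cox8a and Ndufa4), against 22.1% of all genes. The smallest adjusted p among them was then 0.12, for Atp5pf, a peripheral stalk subunit, at a log2 difference of -0.19 (SE 0.06, edgeR). Within numbers, 10 of the 39 were lower in the mutant in all 4 pairs, against 14.7% of all genes. Among them were Cox8a and the 3 genes for the c subunit, Atp5mc1, Atp5mc2 and Atp5mc3. Higher in all 4 were 2, Ndufa4 and Atp5f1d, against 14% of all genes. For Atp5f1d the margin was slight, and both cultures of pair 4 stood at 237.6 CPM.

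**Figure D1:**
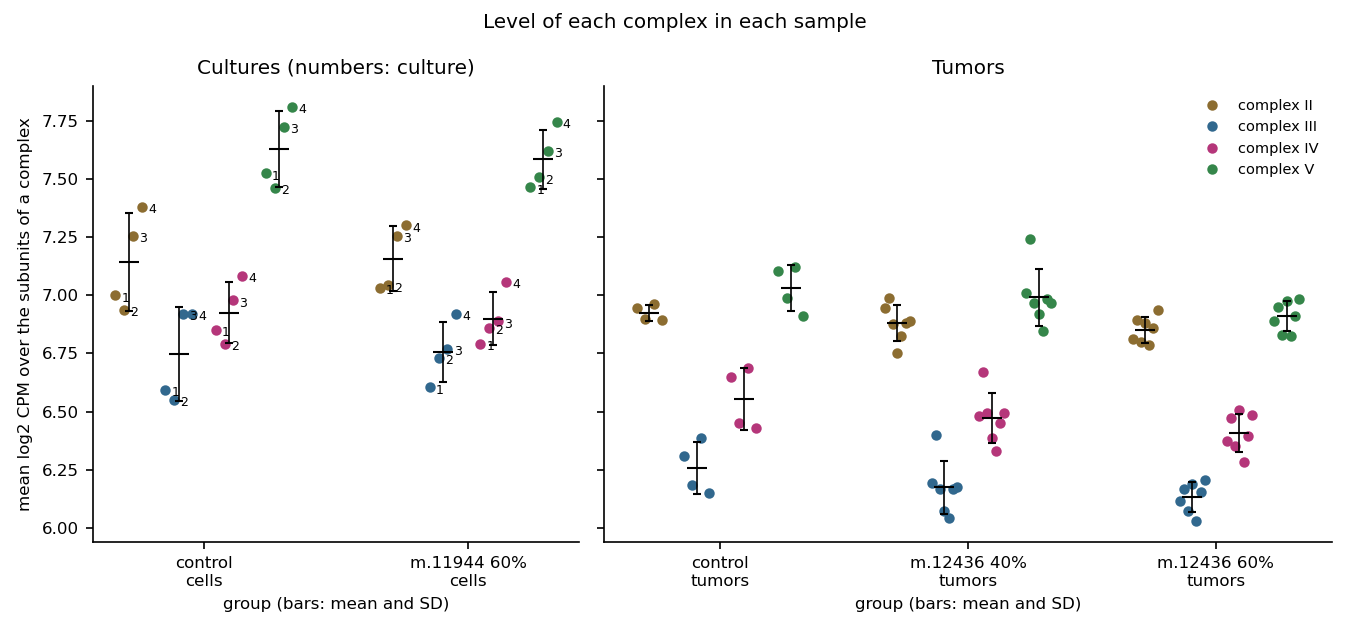
Mean log2 CPM of the nuclear-encoded subunits of complexes II, III, IV and V (y axis) in each library, by group (x axis), with a point per library and bars for the mean and SD; cultures and tumors were scaled separately. In complex V the control tumors cover 6.91 to 7.12, the 60% tumors 6.83 to 6.98 and the 40% tumors 6.85 to 7.24. Tumor 2 of the 40% group stands highest of its group in complexes II, III, IV and V.

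The second comparison set m.12436 60% tumors against control tumors. Nearly all subunits leaned the same way by a small amount: 37 of 39 log2 differences were negative, 12 of them with an unadjusted p under 0.05 by edgeR, where 8.31% of all genes were lower at that p. The median was -0.14 against -0.0025 over all genes tested. A single gene passed the adjusted threshold, Cox8a, which was lower, so 2.6% of the members were called against 1.34% of all 16213 genes called lower, a share too near the background to be a result about the members. No subunit rose, and none separated the groups fully. The medians were -0.06 for complex II, -0.11 for complex III, -0.14 for complex IV and -0.15 for complex V. Without control tumor 3 the median of the 39 was -0.08.

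Cox8a encodes the widely expressed form of the small complex IV subunit VIII. Its CPM, scaled over the 18 tumors, were 210.8, 169.8, 207.3 and 180.8 in control tumors 1 to 4. In the 7 m.12436 60% tumors the lowest, median and highest were 142.4, 161.8 and 170.7 CPM, and in the 7 m.12436 40% tumors 153.6, 165.0 and 183.1 CPM. The highest of the 60% tumors thus just passed the lowest control tumor. The log2 difference between 60% and control tumors was -0.27 (SE 0.07) with an adjusted p of 0.0614 by edgeR. Without control tumor 1 the adjusted p was 0.232, without control tumor 3 it was 0.305, and without m.12436 60% tumor 1 it was 0.114, so each of the 3 libraries carried the call.

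Uqcr11, a small complex III subunit and the one with the lowest difference, measured 71.3, 59.9, 74.3 and 56.8 CPM in the control tumors. The 60% tumors ran from 48.6 over a median of 56.0 to 57.5 CPM, with the top of that range just above the lowest control. Its log2 difference of -0.27 (SE 0.09) did not pass by edgeR (adjusted p of 0.154). DESeq2 called it (adjusted p of 0.0969), and so did edgeR without control tumor 4 (0.0832). In complex V the smallest p belonged to Atp5f1b, the catalytic beta subunit, which ran from 962.2 over 1102 to 1158 CPM in the 60% tumors and from 1147 to 1244 CPM in the controls. The ranges touched, and the log2 difference of -0.15 (SE 0.06) had an adjusted p of 0.215 by edgeR. In complex II it belonged to Sdhb, the iron-sulfur subunit, at -0.17 (SE 0.08, adjusted p of 0.284 by edgeR). Sdha, the flavoprotein of complex II, had the highest difference and was level, at 270.2 ± 7.47 CPM (SD, n = 4) in control tumors and 272.4 ± 11.6 CPM (SD, n = 7) in 60% tumors.

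**Figure D2:**
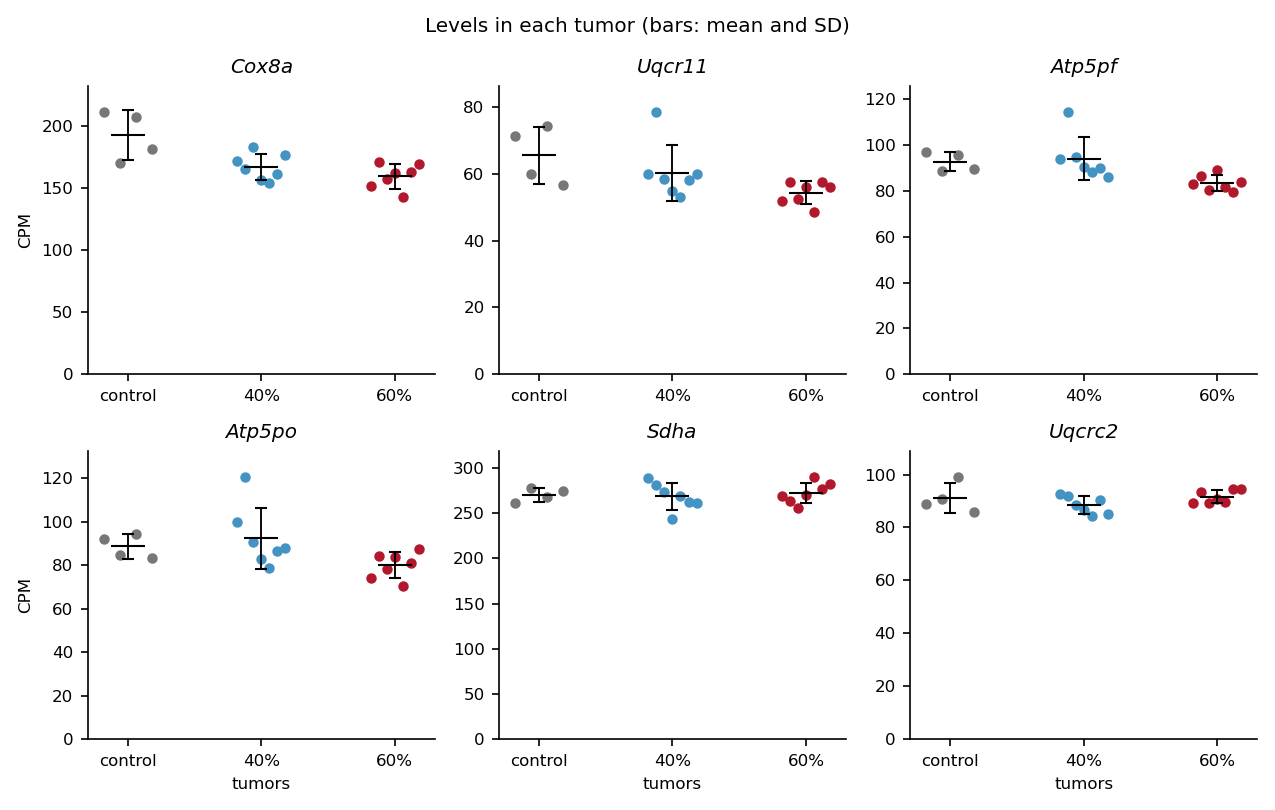
CPM (y axis, scaled over the 18 tumors) of Cox8a, Uqcr11, Atp5pf, Atp5po, Sdha and Uqcrc2 in each tumor, by group (x axis), with a point per tumor and the mean and SD of each group. Cox8a reaches 170.7 CPM at most in the 60% tumors against 169.8 to 210.8 CPM in the control tumors, whereas Sdha and Uqcrc2 cover like ranges in all 3 groups; the m.12436 40% tumor at 114.4 CPM of Atp5pf is tumor 2.

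Other mitochondrial gene lists leaned the same way in the 60% tumors, and the lean was not confined to them. Of 79 cytosolic ribosomal proteins 71 were negative, with a median of -0.06 and no call. Of 37 nuclear complex I subunits 2 were lower and none higher, with a median of -0.09, and of 78 mitochondrial ribosomal proteins 2 were lower, with a median of -0.11. None of 48 assembly factors of complexes II to V, none of the 6 mtDNA-encoded subunits of complexes III to V (median -0.04) and none of 9 transcriptional regulators of the family passed by edgeR. Among the assembly factors 6 had an unadjusted p under 0.05, all lower, and among the mtDNA-encoded subunits and the regulators there were none. Protein-coding genes with an mRNA under 1000 bases had a median of -0.07 against -0.004 for longer ones. Marker levels differed between these groups too. The summed leukocyte markers had medians of 434.7 CPM in control tumors and 629.3 CPM in 60% tumors, with 5 of 5 positive and an unadjusted p under 0.05 each. The 4 cycling markers had medians of 822.6 and 737.3 CPM, with 4 of 4 negative. None of those 9 passed the adjusted threshold, and no leukocyte marker was at 0. The 6 T and NK markers were all positive, with a median log2 difference of 0.76, and none passed or had an unadjusted p under 0.05. Of the 3 melanocytic markers tested Pmel, a pigment granule protein, was lower (adjusted p of 0.0456 by edgeR), at 0.498 to 0.787 CPM in 60% tumors and 0.584, 1.47, 8.79 and 0.7001 CPM in control tumors 1 to 4, so that control tumor 3 stood apart. Of the other marker lists none held a call, and the part of makeup in the subunit values was not tested. Without the 12 tumors that held over 10 CPM of skeletal muscle markers, an alternative chosen after the data were seen, 2 control and 4 m.12436 60% tumors remained. The median of the 39 was then -0.14 and none was called.

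**Figure D3:**
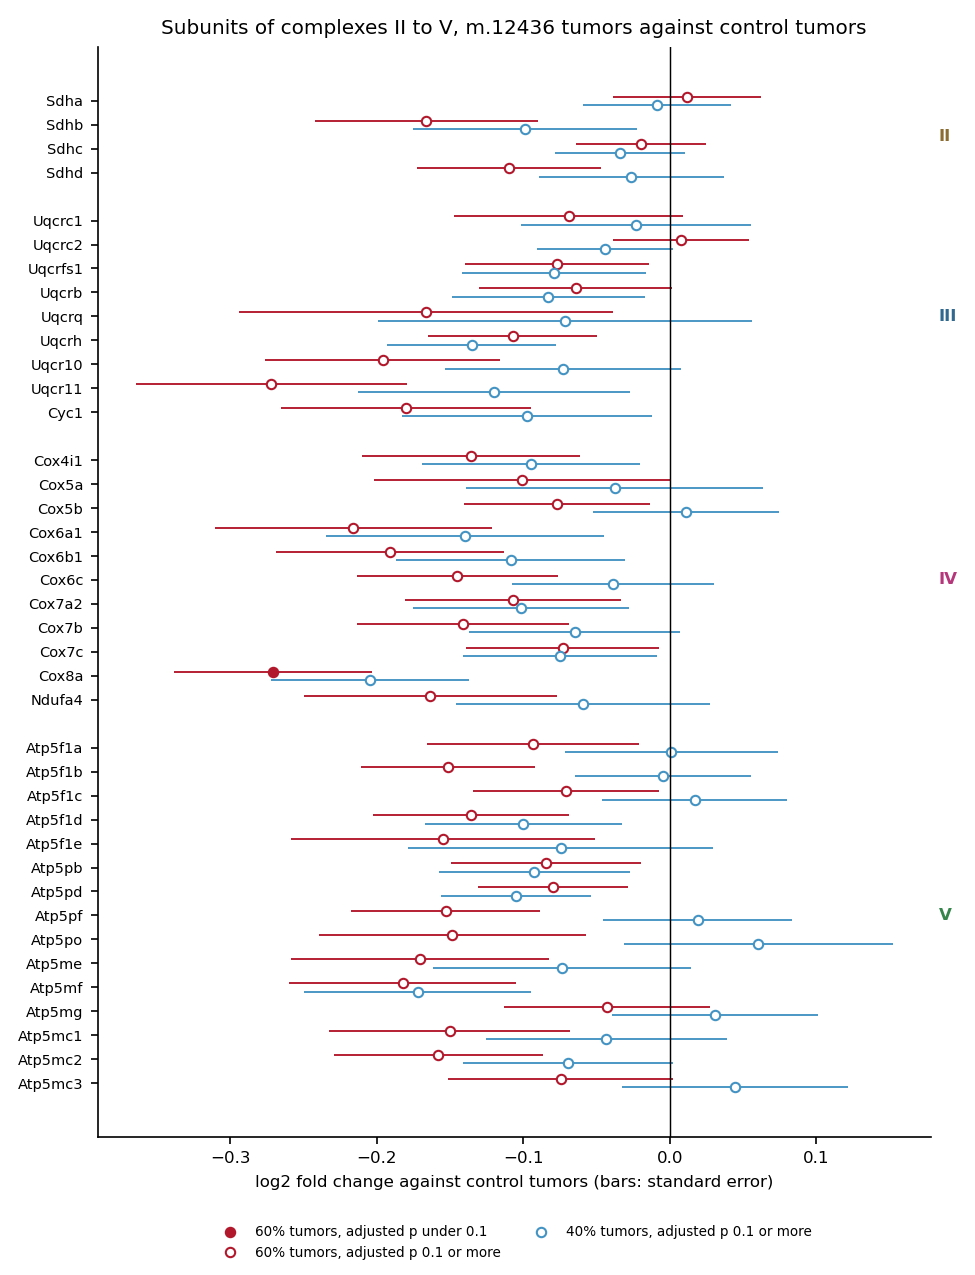
Log2 difference from control tumors of each of the 39 subunits in m.12436 60% and m.12436 40% tumors (x axis, log2 of CPM ratio from edgeR), by gene and complex (y axis). Of the 60% values 37 of 39 lie below 0, as do 32 of the 40% values; both are measured against the same 4 control tumors, and Cox8a in 60% tumors is the one that passed the threshold.

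The m.12436 40% tumors were compared with the same 4 control tumors, so the values of the 2 comparisons are given side by side and are not independent of each other. None of the 39 subunits passed in 40% tumors by edgeR, limma-voom or DESeq2, and 3 had an unadjusted p under 0.05 by edgeR, all lower, against 2.85% of all genes. The call rate over all 16213 genes was 0%, and DESeq2 called 5 genes. The median log2 difference was -0.07, with 32 of 39 negative, and by complex -0.03 for II, -0.08 for III, -0.07 for IV and -0.04 for V. Without control tumor 3 the median was -0.01. Cox8a again had the smallest p of complex IV and the lowest difference, at -0.20 (SE 0.07), where it was -0.27 in 60% tumors, with an adjusted p of 0.924 by edgeR. Uqcrh, the hinge protein of complex III, was at -0.14, Atp5mf of complex V at -0.17, Sdhb at -0.10 and Atp5po, the highest, at 0.06. Of the 39 genes, 30 lay below the control mean in both heteroplasmies. All 8 skeletal muscle markers were positive in 40% tumors, with a median log2 difference of 0.75. None of the 8 had an unadjusted p under 0.05 by edgeR, and their part in the subunit values was not tested.

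Set against each other, 60% and 40% tumors gave no call among the 39 by edgeR or limma-voom, where 1.81% of the 16213 genes were called in either direction. By DESeq2 2 were called, Atp5f1b and Atp5pf, both lower in 60% tumors. In edgeR 3 of the 39 had an unadjusted p under 0.05, the complex V genes Atp5pf, Atp5f1b and Atp5po, all lower in 60% tumors. Over all genes 7.12% were lower at that p, so the members' share is too near the background to be a result about them. Atp5pf ran from 79.5 over a median of 83.2 to 89.1 CPM in 60% tumors and from 86.2 over 90.5 to 114.4 CPM in 40% tumors. The ranges overlapped at their edges, and the log2 difference was -0.17 (SE 0.06, adjusted p of 0.150 by edgeR). Atp5po, which had the lowest difference, ran from 70.6 over 81.0 to 87.3 CPM and from 78.8 over 87.8 to 120.5 CPM in 60% and 40% tumors, a log2 difference of -0.21 (SE 0.08, adjusted p of 0.219). The smallest p of the other complexes belonged to Sdhd (-0.08), Uqcr11 (-0.15) and Cox6c (-0.11), and the highest difference to Uqcrc2, a core protein of complex III, at 0.05. The median of the 39 was -0.08, and -0.03 without m.12436 40% tumor 2. Marker levels differed between these groups as well. All 8 skeletal muscle markers were lower in 60% tumors, with a median log2 difference of -0.73. All 5 leukocyte markers were higher, each with an unadjusted p under 0.05 by edgeR. The 6 T and NK markers were all higher, 3 of them at that p. None of these markers passed the adjusted threshold, and their part in the subunit values was not tested.

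The widest difference in the family was between control tumors and control cultures of the same WT line. Of the 39 subunits 35 were lower in tumors, 89.7% of the members, where 29.9% of the 15047 genes tested were called lower and 35.3% higher. None was higher. In 31 of the 39 (79.5%) every tumor lay below every culture, against 24.4% of all genes. The median log2 difference was -0.75, which leaves 59.3% of the culture level, while the median over all genes was 0.04. When single libraries were left out the count ran from 34 to 38 and the median from -0.84 to -0.70. All 15 genes of complex V were lower (median -0.80), as were 10 of 11 of complex IV (-0.65), 7 of 9 of complex III (-0.75) and 3 of 4 of complex II (-0.52).

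Within complex V the genes of the c subunit, which form the rotating membrane ring, had the lowest median, -1.34. The peripheral stalk was at -0.81, the central stalk at -0.78, the catalytic head at -0.70 and the small membrane subunits e, f and g at -0.70. The c-subunit gene Atp5mc3 had the largest fall of all 39. It measured 281.3, 262.3, 464.5 and 455.2 CPM in control cultures 1 to 4, scaled together with the control tumors, and 136.3, 137.4, 150.5 and 129.7 CPM in those tumors. All 4 tumors lay below all 4 cultures, and the log2 difference was -1.40 (SE 0.20, adjusted p of 0.000319 by edgeR). Unlike the other c-subunit genes it is nearly free of copies, with 3.4% of its mRNA found elsewhere. Atp5f1c, the central stalk gamma subunit that turns inside the head, had the smallest p of the 39. Its cultures measured 314.2, 300.8, 358.5 and 333.8 CPM and its tumors 125.6, 132.1, 129.5 and 118.4 CPM, with a wide gap between the groups and little spread inside either. Its log2 difference was -1.37 (SE 0.10, adjusted p of 6.23e-06 by edgeR). Atp5mc1 differed by -1.34, Atp5mg, subunit g, by -1.02, and the peripheral stalk genes Atp5pb, Atp5po and Atp5pd by -0.98, -0.86 and -0.75.

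In complex III the redox subunits that carry electrons, Uqcrfs1 and Cyc1, had a median of -0.90, and the core proteins Uqcrc1 and Uqcrc2 of -0.84. The 5 small subunits had a median of -0.52, and 3 of them were called lower. Uqcrfs1 measured 122.9, 116.2, 112.2 and 105.4 CPM in the cultures and 56.1, 55.0, 57.0 and 54.2 CPM in the tumors. The tumor values were almost level with each other, and the log2 difference was -1.04 (SE 0.09, adjusted p of 1.68e-05 by edgeR). Uqcrc2 differed by -0.93, and of the small subunits Uqcrq by -1.27 and Uqcr10 by -1.11. Uqcr11 and Uqcrb did not pass, at -0.37 (adjusted p of 0.311 by edgeR) and -0.35 (0.257). For Uqcr11 the cultures were split: cultures 1 and 2 held 47.6 and 45.6 CPM and cultures 3 and 4 held 100.7 and 112.0 CPM, with the tumors between them at 51.4 to 66.4 CPM.

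In complex IV, Cox5a, a subunit on the matrix side, differed most, at -1.21 (SE 0.12, adjusted p of 4.25e-05 by edgeR). It measured 67.2, 59.3, 69.8 and 63.7 CPM in the cultures and 32.7, 24.5, 30.0 and 25.5 CPM in the tumors, with no overlap. Cox7c differed by -0.90 and Cox8a by -0.35 (adjusted p of 0.0379 by edgeR). Cox6a1, the widely expressed form of subunit VIa, was the 1 gene of the 39 with a positive difference. It held 204.7, 190.5, 178.3 and 210.2 CPM in the cultures and 207.6, 187.7, 239.8 and 177.5 CPM in the tumors. The ranges covered each other, at a log2 difference of 0.05 (SE 0.12, adjusted p of 0.73 by edgeR).

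In complex II the membrane anchors Sdhc and Sdhd had a median of -0.70 and the catalytic pair Sdha and Sdhb of -0.30. Sdhc measured 125.9, 111.1, 129.2 and 149.1 CPM in the cultures and 82.7, 79.8, 83.8 and 77.96 CPM in the tumors, with every tumor below every culture. Its log2 difference was -0.67 (SE 0.11, adjusted p of 0.000641 by edgeR). Sdha differed by -0.22 (SE 0.12) and did not pass (adjusted p of 0.159 by edgeR).

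**Figure D4:**
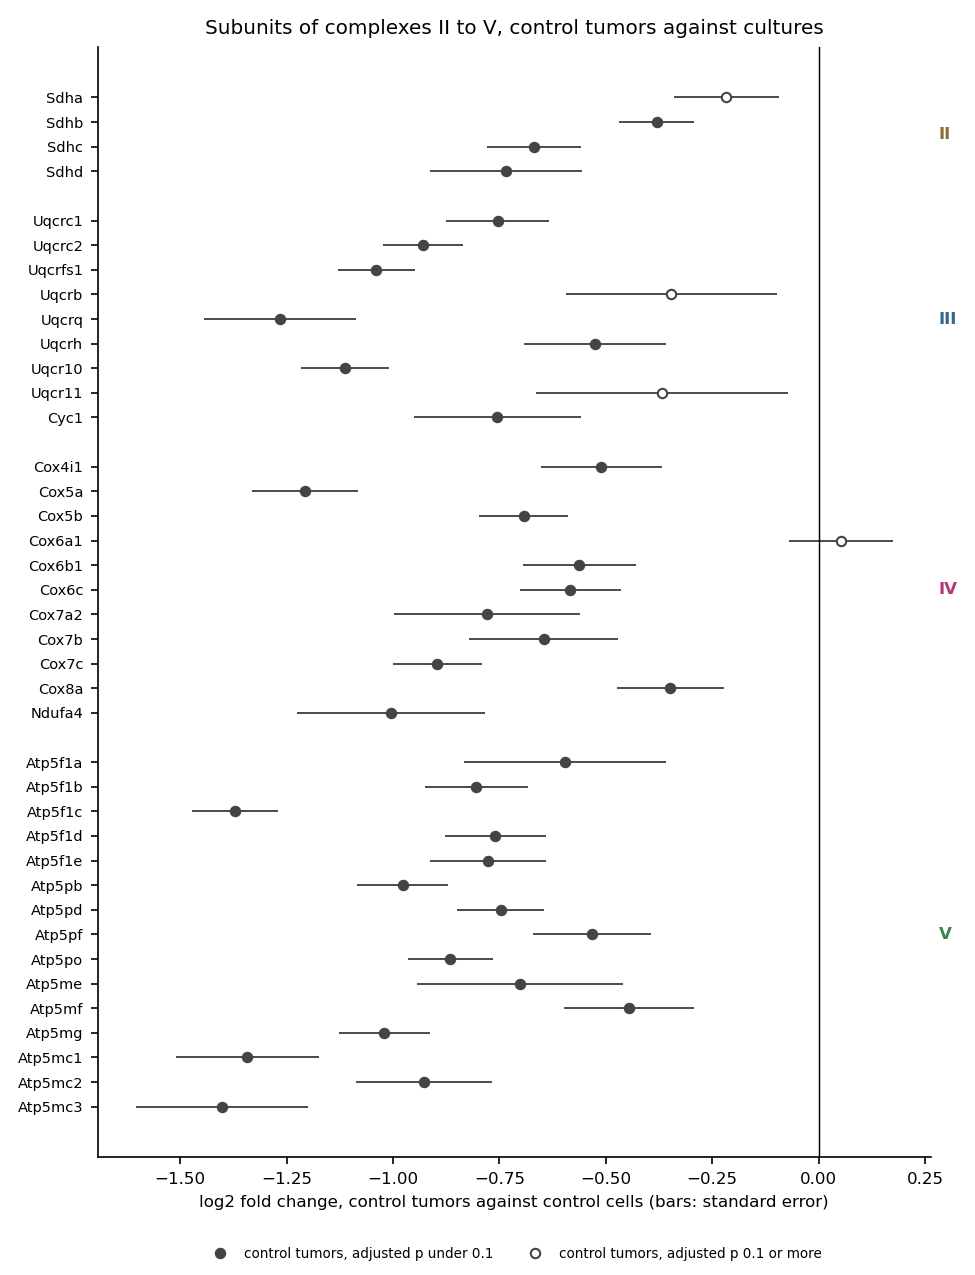
Log2 difference between control tumors and control cultures (x axis, from edgeR) for each of the 39 subunits, by gene and complex (y axis), with bars for the SE. All but Cox6a1 lie below 0, from -0.22 in Sdha to -1.40 in Atp5mc3, and 4 do not pass the threshold: Sdha, Uqcrb, Uqcr11 and Cox6a1.

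Other mitochondrial and ribosomal lists were lower in tumors too, and transcripts of mtDNA were higher. Of 37 nuclear complex I subunits 31 were lower (median -0.69), of 78 mitochondrial ribosomal proteins 67 (-0.76) and of 78 cytosolic ribosomal proteins 76 (-0.89). Protein-coding genes with an mRNA under 1000 bases had a median of -0.35, against 0.02 for longer ones. Of 48 assembly factors 31 were lower and 1, Coa4, was higher. The 6 with the smallest p were Lrpprc (-1.28), which stabilises mitochondrial mRNAs, Tmem70 (-1.24), needed to build the c-ring, Atp5mk (-1.03), a small ATP synthase protein, Hccs (-1.02), which attaches heme to cytochromes c and c1, Uqcc1 (-1.14), an assembly factor of complex III, and Coa5 (-0.65), of complex IV. Of the mtDNA-encoded partners 5 of 6 were higher, with a median of 0.92. mt-Cytb of complex III stood at 2650 ± 233.7 CPM in tumors and 843.7 ± 335.4 CPM in cultures (SD, n = 4 each; log2 difference 1.65). mt-Co1 of complex IV was 1.56 higher on the log2 scale and mt-Co2 1.03, while mt-Atp8 and mt-Atp6 of complex V were 0.81 and 0.75 higher. These are uncertain, since between 90.4% and 100% of each mtDNA message other than mt-Cytb (30.0%) also occurs elsewhere in the genome. Of 9 regulators 6 were lower and 1 higher. Tfam, the mtDNA packaging and transcription factor, differed by -0.80. Nrf1 differed by -0.86, Gabpb1 by -0.95, Gabpa by -0.59 and Yy1 by -0.24, all known activators of respiratory genes, and the coactivator Ppargc1b by 0.93.

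The makeup of the samples differed too. In control tumors the leukocyte, macrophage and T and NK markers summed to 386.1 to 571.3, 955.1 to 1183 and 7.64 to 25.7 CPM. In control cultures their sums reached at most 0.37, 3.16 and 0 CPM. Most of them thus passed the filter on low counts through the tumors, and their calls are left out. Fibroblast markers summed to 8095 to 10770 CPM in control tumors and 558.1 to 1559 CPM in control cultures. Of the 4 cycling markers 3 were lower, with sums of 755.1 to 1029 CPM in control tumors and 833.9 to 1407 CPM in control cultures. All these sums were scaled within their own sample type. Melanoma cells and host cells in the tumors cannot be told apart in these libraries, and the part of makeup in the subunit values was not tested.

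Several subunits of complex IV exist as tissue-specific forms made from separate genes. Of 8 such genes listed, Cox6a2 and Ndufa4l2 reached a group mean of 1 CPM in the comparison of control tumors and cultures, and Cox4i2 did so in control tumors when scaled over the tumors. Ndufa4l2, a paralog of Ndufa4, held 0.442, 0.514, 0.0311 and 0.0365 CPM in the control cultures and 4.24, 2.61, 7.97 and 3.85 CPM in the control tumors. Every tumor lay above every culture, at 86 to 271 reads against 1 to 13. The cultures were near the floor, so no fold change is given for this gene. Cox4i2, the alternative form of subunit IV, had 14 to 50 reads in each control tumor and 0 to 2 in each control culture. Cox6a2, the heart and muscle form of Cox6a1, ran the other way. It held 31.7 and 28.1 CPM in control cultures 1 and 2 but 0.187 and 0.109 CPM in cultures 3 and 4, and 0.0423 to 1.39 CPM in the control tumors. It was called lower in tumors (log2 difference -4.42, SE 1.60, adjusted p of 0.0384 by edgeR), although cultures 3 and 4 fell inside the tumor range. The m.11944 60% cultures showed the same split, with 15.1 and 18.6 CPM in cultures 1 and 2 and 0.42 and 0.03 CPM in cultures 3 and 4, when scaled over the cultures alone. In the tumors Cox6a2 ran from 0.381 to 1.99 CPM in the 12 with over 10 CPM of skeletal muscle markers and from 0.0467 to 0.492 CPM in the other 6. The part of muscle in these values was not tested. None of the 5 isoform genes tested in the tumors passed between genotypes by edgeR, and none had an unadjusted p under 0.05.

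**Figure D5:**
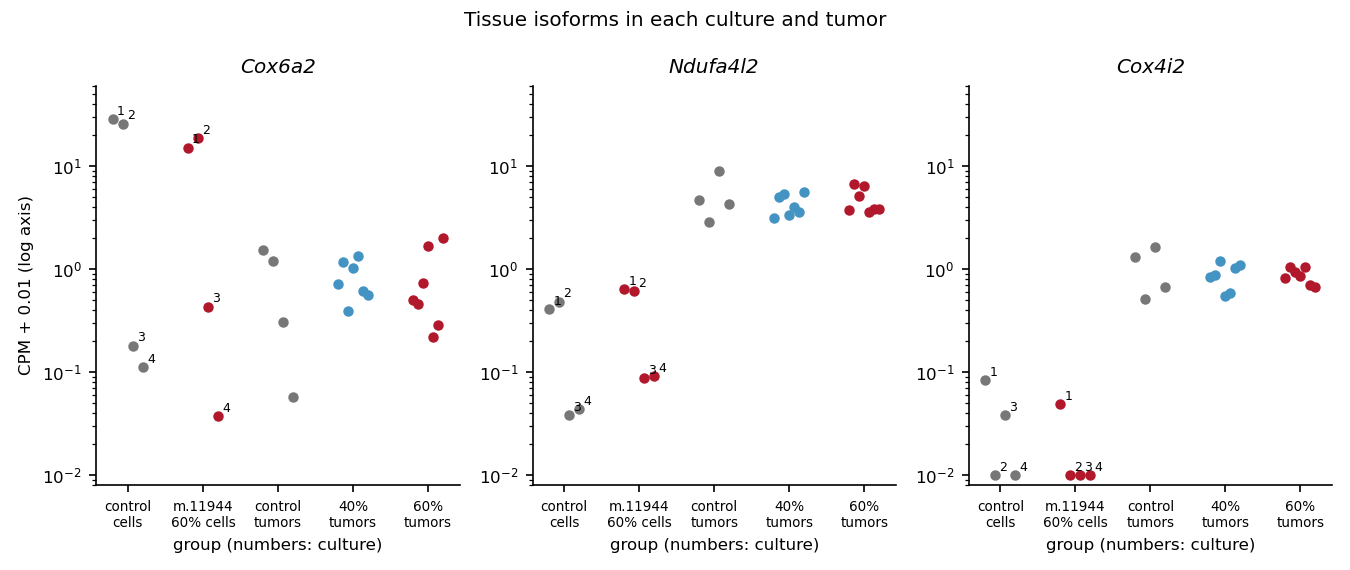
CPM plus 0.01 (y axis, log scale) of Cox6a2, Ndufa4l2 and Cox4i2 in each library, by group (x axis), with a point per library; cultures and tumors were scaled separately. Cox6a2 falls into 2 levels in both culture groups, whereas Ndufa4l2 and Cox4i2 are higher in every tumor than in any culture.

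Promoters of 4 subunits are shown for context. The windows run from 250 bases before to 50 bases after the annotated start, in RefSeq's annotation of GRCm38.p6, and 31 of the 39 subunits had an entry. Those without one were Sdhc, Uqcrc2, Uqcrb, Uqcrq, Cyc1, Cox4i1, Cox6c and Atp5f1a. Capitals mark the letters of a motif searched on both strands: CCGGAAG for GABP, GCGCATGC for NRF1, AAGGTCA for the estrogen-related receptors and AAGATGGC for YY1. Cox8a (chr19:7217567-7217866, minus strand) is shown because it was the subunit called in 60% tumors, and Uqcr11 (chr10:80406772-80407071, minus strand) because it had the lowest difference there. Atp5mc3 (chr2:73911277-73911576, minus strand) had the largest fall between control tumors and cultures, and Cox6a1 (chr5:115348909-115349208, minus strand) was the subunit with a positive difference.
Cox8a: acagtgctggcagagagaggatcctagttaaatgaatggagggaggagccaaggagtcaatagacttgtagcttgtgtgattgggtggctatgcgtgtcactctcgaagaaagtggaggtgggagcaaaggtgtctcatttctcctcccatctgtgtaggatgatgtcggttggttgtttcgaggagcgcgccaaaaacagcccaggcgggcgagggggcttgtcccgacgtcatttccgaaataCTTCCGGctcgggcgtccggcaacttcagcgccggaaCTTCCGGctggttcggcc
Uqcr11: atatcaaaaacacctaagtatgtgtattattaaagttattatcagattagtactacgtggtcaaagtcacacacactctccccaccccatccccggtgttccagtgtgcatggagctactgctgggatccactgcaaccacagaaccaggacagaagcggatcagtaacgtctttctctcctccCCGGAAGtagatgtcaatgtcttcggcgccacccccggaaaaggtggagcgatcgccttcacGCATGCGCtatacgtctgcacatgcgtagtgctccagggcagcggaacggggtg
Atp5mc3: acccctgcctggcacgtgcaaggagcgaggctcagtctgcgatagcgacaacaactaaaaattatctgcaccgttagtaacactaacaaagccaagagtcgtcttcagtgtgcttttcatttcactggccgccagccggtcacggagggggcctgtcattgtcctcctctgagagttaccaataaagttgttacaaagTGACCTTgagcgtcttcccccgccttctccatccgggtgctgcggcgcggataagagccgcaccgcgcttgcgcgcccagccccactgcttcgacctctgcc
Cox6a1: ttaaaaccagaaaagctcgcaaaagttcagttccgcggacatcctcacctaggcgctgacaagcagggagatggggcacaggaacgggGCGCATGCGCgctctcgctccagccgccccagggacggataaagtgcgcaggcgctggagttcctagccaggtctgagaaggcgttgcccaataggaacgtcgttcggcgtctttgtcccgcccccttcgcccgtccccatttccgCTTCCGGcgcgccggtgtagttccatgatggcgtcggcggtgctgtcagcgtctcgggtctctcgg
Cox8a held the GABP letters in 2 places, at 5 bases before and 32 bases after the start. Uqcr11 held them 66 bases before the start, with NRF1 letters 4 bases before it. In Atp5mc3 the receptor motif began 52 bases before the start, and Cox6a1 held GABP letters 16 bases before it and a pair of overlapping NRF1 matches further out. Of the 31 promoters 12 held the GABP motif, 38.7% against 9.93% of 27025 gene promoters of the same length. The NRF1 motif was in 7 (22.6% against 3.05%), the receptor motif in 5 (16.1% against 5.38%) and the YY1 motif in 3 (9.7% against 3.19%). Any of the 4 was found in 17 (54.8% against 19.66%). A match is a run of letters and not a measured binding site, and its part in the subunit levels was not tested.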

How the data were processed

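Total RNA of 8 cultures and 18 tumors was sequenced. The authors aligned reads to the mouse genome GRCm39 with STAR and deposited raw read counts per gene, made with featureCounts on an Ensembl annotation; strand and multi-mapping settings are not given in the sources used here. Of 47 columns, 26 matched a sample's labels and 21 were not used. The columns of the m.11944 60% cultures carry a line code that was tied to them through a heading in the study's source data, and those headed high and low were taken as the m.12436 60% and 40% tumors. Ensembl IDs were matched to symbols with the GENCODE annotation. The members and gene lists were chosen with earlier results of these data known.

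Counts were tested with robust quasi-likelihood fits in edgeR (4.0.16, R 4.3.3) after TMM scaling and edgeR's filter on low counts, two-sided, with Benjamini-Hochberg adjustment over all genes tested and a threshold of 0.1, which the study also used. The cultures, the tumors of all 3 groups, and the control tumors with the control cultures were fitted apart, so CPM differ slightly between these scalings. All tests and fold changes stayed within 1 scaling; summed markers and isoform levels of cultures and tumors are set side by side from separate scalings. CPM used the TMM library sizes. Fold changes are log2 with standard errors. Where the labels do not say that samples came from separate animals or cultures, p-values measure the spread between these samples. Counts cover libraries of 16475735 to 36173502 reads.

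Cultures with the same number deviated together, with a correlation of deviations between 0.718 and 0.832 in every pair (mean 0.796, against -0.264 for different numbers), so the number was also used as a block. Tumors of the same number did not.

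Alternatives were limma-voom (limma 3.58.1), DESeq2 (1.42.0), DESeq2 size factors, no low-count filter, at least 10 counts in every sample, an adjusted p under 0.05, the replicate block, other sets of samples in the fit and leaving out each sample. The scripts were tested on simulated counts. Named subunits are those called (at most 12 by smallest p), the smallest p of each complex, and the highest and lowest difference; subunits named beyond these were chosen after their values were seen. Tissue isoforms were named from a group mean of 1 CPM, and other genes where they passed, at most 6 a list.

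Uniqueness of each message was measured as the share of its mRNA covered by 32-base words found elsewhere in GRCm39. Promoter sequences came from RefSeq's GRCm38.p6 tables, matched by Ensembl ID and otherwise by symbol. Of the 31 subunits 13 stand there under an older symbol.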

Additional observations from a re-analysis of the deposited data

Results flagged for a closer look

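Among 100 groups of 4 to 7 samples examined for a sample standing apart, 6 were flagged by Dixon's criterion, where chance flags about 1 in 20. Of these, 4 were m.12436 40% tumor 2. Its mean log2 CPM over the complex III subunits was 6.40, against 6.04 to 6.19 in the other 6 tumors of its group, and over the complex V subunits it was 7.24, against 6.85 to 7.01. Its Atp5pf was 114.4 CPM, against 86.2 to 95.0 CPM, and its Uqcr11 was 78.4 CPM, against 53.1 to 59.9 CPM. The same tumor had the lowest summed fibroblast markers of all tumors, 5692 CPM, and the lowest melanocytic ones, 15.2 CPM. Its endothelial and cycling markers, 249.3 and 912.3 CPM, were the highest of its group. The part of makeup in these values was not tested.

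In the m.11944 60% cells, Atp5f1b stood high in culture 4, at 1902 CPM against 1631 to 1652 CPM in the other 3, and Cox8a stood low in culture 3, at 145.2 CPM against 191.1 to 194.5 CPM.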

How the results depend on the processing

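For 60% against control tumors, 1 subunit was called in edgeR. The count was 2 with DESeq2 and with only the 2 groups compared, and 0 at an adjusted p under 0.05, with the replicate block and without the tumors over 10 CPM of skeletal muscle markers; it ran from 0 to 2 when single tumors were left out. The cause of these changes was not tested. Of the 39, DESeq2 called 2 for 60% against 40% tumors, where edgeR called 0. The counts for cultures and for 40% against control tumors were 0 under every alternative run, and that for control tumors against cultures ran from 32 to 38. In the cultures, where numbers pair the samples, the block called 0 of the 39. In the tumors the numbers are only shared (mean correlation of -0.156 between 60% and control tumors), and apart from Cox8a in 60% tumors (adjusted p of 0.154 by edgeR) the block changed no call.

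The median difference of the 39 kept its sign in all tumor comparisons and moved past 0 in the cultures, from -0.08 to 0.06. The subunits picked by the naming rule gave 642 recomputed values. Of these 632 kept their side of the threshold, 6 lost a call (Cox8a) and 4 gained one (Uqcr11 and Atp5pf). A change of sign was looked for only in subunits called in the main edgeR fit, and none of those reversed.

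Counts over all genes moved more. In the cultures 5 genes became 84 with DESeq2, 919 with the block and 0 with any 1 culture left out. In 60% against control tumors 374 became 1056 with DESeq2, 943 with only the 2 groups, 178 with the block, 150 at 0.05 and 52 without the muscle-rich tumors. It was 125 without control tumor 1, 716 without 2, 66 without 3 and 724 without 4, and 186, 239 and 207 without 60% tumors 1, 3 and 4. In 60% against 40% tumors 293 became 744 with DESeq2, 178 without a filter and 113 at 0.05. It ran from 108 without 60% tumor 1 to 452 without 40% tumor 4. With 4 control tumors, the small tumor differences rest on few libraries.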
